A study of Mus musculus with 15 samples.

Results

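The MAP kinase phosphatases described here are 8 dual-specificity phosphatase genes, *Dusp1*, *Dusp2*, *Dusp4*, *Dusp5*, *Dusp6*, *Dusp7*, *Dusp10* and *Dusp16*, out of 51763 genes counted in bone marrow-derived macrophages (BMDMs). They were chosen by name, with earlier results of these data known, and each symbol matched 1 Ensembl identifier of the count table. All 8 passed the filter on low counts that left 16919 genes for testing. The 15 libraries fell into 5 conditions of 3 libraries each. All came from wild-type female C57BL/6NTac mice aged 8 to 10 weeks, whose marrow was grown with 10 ng/mL M-CSF (10 days by the labels, 8 to 9 days by the methods). The macrophages of 5 mice were pooled before seeding, so every error and p below covers the spread between libraries of a single pool and not between mice. The methods call the replicates technical and for that reason set p aside, using a log2 fold change beyond 2 in either direction. Whether the libraries of a condition came from separately stimulated cultures is not stated in the sources used here. The stimulations lasted 24 h. PBS was the unstimulated control, fully reduced HMGB1 (frHMGB1, made in-house) and disulfide HMGB1 (dsHMGB1, a gift of another laboratory) were given at 5 µg/mL, LPS at 1 µg/mL, and LPS/IFNγ as LPS with 20 ng/mL IFNγ, where the LPS was 1 µg/mL by the treatment field and 100 ng/mL by the protocol text and the methods. HMGB1 is a nuclear DNA-binding protein that acts as an alarm signal outside the cell, and its disulfide form and LPS are both ligands of the receptor TLR4.

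Toll-like receptors activate the MAP kinases ERK, JNK and p38 by phosphorylation of a threonine and a tyrosine in their activation loop. MAP kinase phosphatases remove both phosphates and are themselves transcribed in response to the kinases, which makes them a feedback arm of the pathway. By location and substrate they form an inducible nuclear class (*Dusp1*, *Dusp2*, *Dusp4*, *Dusp5*), a cytoplasmic class that acts on ERK (*Dusp6*, *Dusp7*) and a class that prefers JNK and p38 (*Dusp10*, *Dusp16*). In macrophages, the member best known for restraining the production of inflammatory cytokines is *Dusp1*.

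The macrophage identity of the libraries was read from 8 markers, all of them expressed. Their summed level was 21900 to 26200 CPM (counts scaled to library size) in PBS and 27000 to 27300 CPM in frHMGB1. It was 19600 to 21000 CPM in dsHMGB1, 16100 to 16800 CPM in LPS and 13500 to 13900 CPM in LPS/IFNγ. *Lyz2* took 9140 to 20400 CPM of these sums. By normalized counts (DESeq2 size factors), a scaling other than CPM, the marker *Adgre1* had means of 39920 for PBS and 50680 for frHMGB1. Its means were higher with the other stimulations, at 101700 for dsHMGB1, 84940 for LPS and 74100 for LPS/IFNγ. The other markers are not given by condition, and whether the lower sums reflect a loss of macrophage identity was not tested. The summed level of 6 fibroblast markers was 118 to 282 CPM, most of it *Col1a1* and *Col1a2*, and that of 7 neutrophil markers 1.97 to 5.56 CPM. The 6 lymphocyte markers summed to at most 0.152 CPM and the 6 erythroid markers to at most 0.0891 CPM. The 4 dendritic cell markers summed to 0.959 to 2.77 CPM in PBS and frHMGB1, 3.09 to 4.08 CPM in dsHMGB1, 7.69 to 8.44 CPM in LPS and 13 to 14.2 CPM in LPS/IFNγ, of which *Flt3* and *Siglech* were at or near 0 throughout; their part in the results was not tested. Total counts were 40934540 to 80925478 per library. PBS replicate 3 stood apart. Its correlation with the other PBS libraries was 0.934 and 0.939 across genes, against 0.987 to 0.993 for all other pairs of replicates, processed pseudogenes took 1.49% of its counts against 0.48% to 0.833% elsewhere, and the ferritin gene *Fth1* took 6.77%. The values of the 8 genes over PBS are therefore given with all libraries and, for dsHMGB1, LPS and LPS/IFNγ, also without PBS replicate 3, and the part of that library in any result was not tested beyond this. In bulk RNA, fewer cells of a type and less RNA per cell cannot be told apart.

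Promoter sequences were found for 7 of the 8 genes (RefSeq, GRCm38.p6, 250 bases before to 50 bases after the start), *Dusp4* being the exception. They were searched on both strands for the cyclic AMP response element (CRE, TGACGTCA), its shorter form TGACG, which each full CRE also contains on both strands, the AP-1 motif TGANTCA, the ETS motif GGAAG and the NF-κB motif. The full CRE was found in *Dusp1*, at 143 bases before the start, and it is held by 1.79% of 32851 promoters. TGACG was found in *Dusp1*, *Dusp2*, *Dusp5* and *Dusp16* and in 20.8% of all promoters, and GGAAG in *Dusp2*, *Dusp5* and *Dusp6* and in 71.4%. No AP-1 and no NF-κB match was in any of the 7 windows (7.81% and 4.51% of all promoters). The 4 promoters with TGACG are printed, a choice made with the fold changes described below known. These genes had the largest log2 fold changes over PBS in LPS, though not in the other stimulations. *Dusp4* had no promoter to search, and a link between motif and response was not tested. Capitals mark the full CRE or the shorter form, which is read backwards from the opposite strand in *Dusp2* and *Dusp5*. A match is a description of letters, not a bound site. The windows are chr17:26508423-26508722 (minus strand) for *Dusp1*, chr2:127335909-127336208 (plus) for *Dusp2*, chr19:53528895-53529194 (plus) for *Dusp5* and chr6:134792579-134792878 (minus) for *Dusp16*, each running 5′ to 3′ in the direction of transcription.
Dusp1: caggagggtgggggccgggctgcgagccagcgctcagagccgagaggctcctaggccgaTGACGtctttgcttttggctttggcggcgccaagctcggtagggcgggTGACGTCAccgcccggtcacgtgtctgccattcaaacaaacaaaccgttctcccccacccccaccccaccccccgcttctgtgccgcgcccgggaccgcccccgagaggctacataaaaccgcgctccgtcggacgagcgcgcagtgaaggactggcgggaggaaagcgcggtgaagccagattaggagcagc
Dusp2: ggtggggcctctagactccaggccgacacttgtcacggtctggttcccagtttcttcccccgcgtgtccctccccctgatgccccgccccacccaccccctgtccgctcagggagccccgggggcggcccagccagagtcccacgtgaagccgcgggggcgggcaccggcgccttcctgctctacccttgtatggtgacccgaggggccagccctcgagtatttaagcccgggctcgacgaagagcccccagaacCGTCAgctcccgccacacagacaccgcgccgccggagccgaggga
Dusp5: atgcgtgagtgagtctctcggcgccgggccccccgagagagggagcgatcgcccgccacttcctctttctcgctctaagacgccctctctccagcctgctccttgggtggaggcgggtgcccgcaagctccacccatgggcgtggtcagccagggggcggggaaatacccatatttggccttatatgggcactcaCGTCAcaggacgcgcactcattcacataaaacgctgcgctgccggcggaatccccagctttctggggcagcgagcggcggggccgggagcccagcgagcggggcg
Dusp16: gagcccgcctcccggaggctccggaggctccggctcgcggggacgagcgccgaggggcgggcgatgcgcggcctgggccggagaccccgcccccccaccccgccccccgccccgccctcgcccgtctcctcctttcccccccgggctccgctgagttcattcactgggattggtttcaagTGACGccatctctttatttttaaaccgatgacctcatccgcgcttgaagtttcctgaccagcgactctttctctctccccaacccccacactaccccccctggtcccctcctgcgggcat

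Against PBS, 4 of the 8 phosphatase mRNAs were higher and 2 lower in dsHMGB1, 7 were higher and 0 lower in LPS, and 5 were higher and 0 lower in LPS/IFNγ. The same calls (adjusted p under 0.05 in edgeR's quasi-likelihood test over all 16919 genes) took in 23.3% of all tested genes as higher and 24.2% as lower in dsHMGB1, 26.7% and 36.2% in LPS, and 29% and 31.2% in LPS/IFNγ. *Dusp2* and *Dusp16* had a log2 fold change above 2 in all 3 of these stimulations, joined by *Dusp5* in LPS/IFNγ; the share of all genes above 2 was 8.43%, 10.9% and 12.1%. The median log2 fold change of the 8 genes was 0.53 for dsHMGB1, 1.23 for LPS and 0.96 for LPS/IFNγ, beside -0.10, -0.21 and -0.12 over all tested genes. *Dusp8* and *Dusp9* of the same family, described below, are not in these counts and medians. In frHMGB1, 0 members were higher and 1, *Dusp5*, was lower, where 1.31% of all genes were called higher and 5.69% lower. At an unadjusted p under 0.05, and by DESeq2's Wald test, the numbers were 0 higher and 1 lower in frHMGB1 as well, and 0 lower in LPS and in LPS/IFNγ. Without PBS replicate 3, the numbers higher and lower were 1 and 1 with frHMGB1, 5 and 2 with dsHMGB1, 7 and 1 with LPS and 6 and 1 with LPS/IFNγ, and the shares of all genes called also grew, to 8.41% and 9.09%, 29.8% and 29%, 32.9% and 38.3%, and 33.3% and 34.4%. The 4 comparisons share the PBS libraries.

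**Figure D1:**
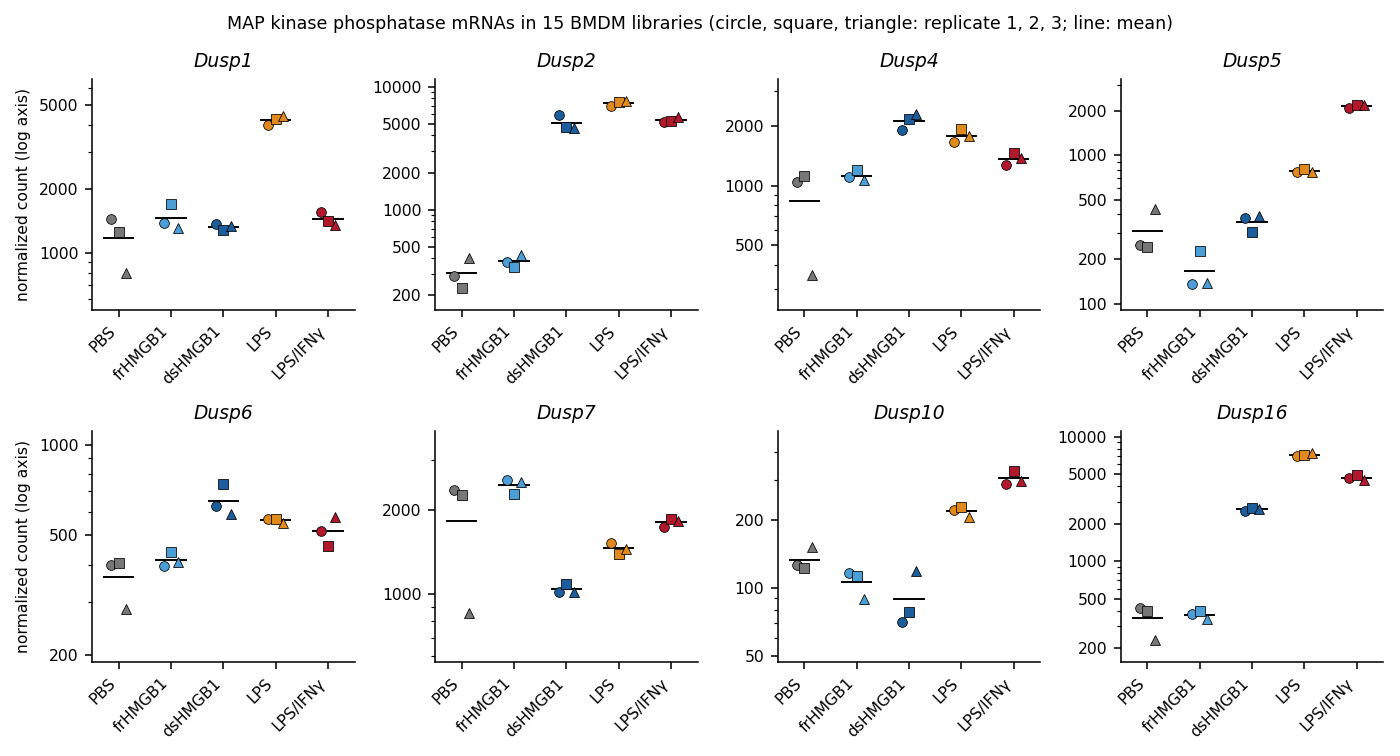
Normalized counts (log axis) of the 8 genes in each of the 15 libraries, by condition; circles, squares and triangles are replicates 1, 2 and 3 and the line is the mean of 3. The dsHMGB1, LPS and LPS/IFNγ libraries of *Dusp2* and *Dusp16* sit far above PBS and frHMGB1, *Dusp1* is high in LPS alone, and PBS replicate 3 (grey triangle) lies apart from the other PBS libraries for *Dusp4* and *Dusp7*.

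Among the inducible nuclear phosphatases, *Dusp2* (ENSMUSG00000027368, chr2:127336159-127338376), also known as PAC-1 and expressed mainly in blood cells, made the largest rise. Its normalized counts (DESeq2 size factors) were 288, 228 and 403 in PBS and 376, 339 and 427 in frHMGB1. They were 5913, 4666 and 4635 in dsHMGB1, 6924, 7474 and 7703 in LPS, and 5116, 5231 and 5638 in LPS/IFNγ. The 9 libraries of these 3 stimulations were all far above the 6 of PBS and frHMGB1. The log2 fold change over PBS was 4.06 ± 0.18 (SE) for dsHMGB1 (16.7-fold, adjusted p = 5.35e-10), 4.60 ± 0.18 for LPS (24.2-fold, adjusted p = 1.15e-10) and 4.13 ± 0.18 for LPS/IFNγ (17.5-fold, adjusted p = 2.44e-10), and without PBS replicate 3 it was 4.29, 4.83 and 4.36. In frHMGB1 it was 0.32 ± 0.19 (adjusted p = 0.314), with overlapping replicates, and 0.56 without PBS replicate 3 (adjusted p = 0.00575).

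*Dusp1* (ENSMUSG00000024190, chr17:26505590-26562128) encodes the classical immediate-early phosphatase MKP-1, which limits p38 and JNK activity and cytokine output in macrophages. At 24 h it was called higher than PBS in LPS alone. Its normalized counts were 1446, 1251 and 802.5 in PBS, 4024, 4282 and 4420 in LPS, and 1553, 1408 and 1352 in LPS/IFNγ. In frHMGB1 they were 1383, 1699 and 1304, and in dsHMGB1 1363, 1277 and 1336. The LPS libraries therefore stood above all others, and the other 4 conditions overlapped. In LPS it was above PBS by 1.86 ± 0.19 on the log2 scale (3.63-fold, adjusted p = 2.75e-06, and 1.64 without PBS replicate 3), while the values for dsHMGB1 and LPS/IFNγ were 0.18 ± 0.19 and 0.30 ± 0.19 (adjusted p = 0.498 and 0.242). These were -0.03 and 0.08 without PBS replicate 3, and without PBS replicate 1 the LPS/IFNγ value was 0.48 and called (adjusted p = 0.0477). On the opposite strand, 11 bases of *Dusp1* exons overlap *Ergic1*; the libraries were made with a stranded kit, but the strand setting of the counting is not given in the sources used here.

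*Dusp4* (ENSMUSG00000031530, chr8:34807297-34819894), which acts on ERK and JNK, had its highest mean in dsHMGB1. Its normalized counts were 1044, 1119 and 354 in PBS, 1105, 1206 and 1067 in frHMGB1, and 1907, 2166 and 2313 in dsHMGB1. They were 1662, 1931 and 1781 in LPS and 1267, 1462 and 1381 in LPS/IFNγ. PBS replicate 3 lay below every other library, and the other PBS libraries at the level of frHMGB1. Over PBS, it rose by 1.34 ± 0.31 on the log2 scale with dsHMGB1 (adjusted p = 0.00352) and by 1.09 ± 0.31 with LPS (adjusted p = 0.012), and the value for LPS/IFNγ was 0.71 ± 0.31 (adjusted p = 0.0807). Without PBS replicate 3 these were smaller, with lower adjusted p, at 0.97 (adjusted p = 9.33e-08), 0.72 (adjusted p = 5.3e-06) and 0.33 (adjusted p = 0.0165). With all PBS libraries kept and the 2 conditions fitted alone, the dsHMGB1 and LPS calls were lost (adjusted p = 0.068 and 0.0622).

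*Dusp5* (ENSMUSG00000034765, chr19:53529109-53542431), a nuclear phosphatase specific for ERK, had its highest level in LPS/IFNγ. Its normalized counts were 249.6, 239.6 and 433.5 in PBS, 136, 228 and 137 in frHMGB1, and 376, 305 and 390.0 in dsHMGB1. They were 773, 810.0 and 769 in LPS and 2093, 2188 and 2187 in LPS/IFNγ. The 3 LPS/IFNγ libraries lay above all LPS libraries, and these above all others. It was above PBS in both LPS stimulations, with log2 fold changes of 1.36 ± 0.24 for LPS (adjusted p = 0.000171) and 2.82 ± 0.24 for LPS/IFNγ (7.05-fold, adjusted p = 1.56e-07), and 1.67 and 3.13 without PBS replicate 3. It was 0.22 ± 0.24 in dsHMGB1 (adjusted p = 0.413), and 0.54 (adjusted p = 0.00869) without PBS replicate 3, the highest of the PBS libraries here. In frHMGB1 it was -0.87 ± 0.25 (adjusted p = 0.0361), and -0.55 (adjusted p = 0.0279) without PBS replicate 3. This call was lost in the fit of protein-coding genes alone (adjusted p = 0.137), with the 2 conditions fitted alone (0.512), with a replicate block (0.0659) and without frHMGB1 replicate 1 (0.163) or 3 (0.16). An antisense gene, AC137853.2, overlaps 547 bases of its exons and had 0 to 6 counts per library.

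The cytoplasmic ERK phosphatases moved in opposite directions in dsHMGB1. *Dusp6* (ENSMUSG00000019960, chr10:99263231-99267489), which encodes MKP-3, a feedback inhibitor of ERK, had 399, 405 and 285 normalized counts in PBS, 397, 439 and 407 in frHMGB1, and 625, 740.3 and 590.1 in dsHMGB1. It had 566, 565 and 551 in LPS and 516.5, 461 and 575 in LPS/IFNγ. All 9 libraries of dsHMGB1, LPS and LPS/IFNγ lay above the 6 of PBS and frHMGB1. *Dusp6* rose over PBS by 0.84 ± 0.15 with dsHMGB1 (1.79-fold, adjusted p = 0.000783), by 0.62 ± 0.15 with LPS (adjusted p = 0.00825) and by 0.50 ± 0.15 with LPS/IFNγ (adjusted p = 0.0196) on the log2 scale, and by 0.70, 0.47 and 0.36 without PBS replicate 3, each still called. The LPS/IFNγ call was lost without LPS/IFNγ replicate 1 (adjusted p = 0.05) or 3 (0.0892) and with the 2 conditions fitted alone (0.0649).

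*Dusp7* (ENSMUSG00000053716, chr9:106368632-106375724), a close relative of *Dusp6* that also acts on ERK, fell in dsHMGB1. Its normalized counts were 2355, 2257 and 859 in PBS, 2549, 2287 and 2512 in frHMGB1, and 1022, 1089 and 1018 in dsHMGB1. They were 1519, 1397 and 1453 in LPS and 1734, 1855 and 1820.0 in LPS/IFNγ. PBS replicate 3 was below all 14 other libraries, and the other PBS libraries were at the level of frHMGB1 and above those of dsHMGB1, LPS and LPS/IFNγ. With all libraries, its log2 fold change over PBS was -0.81 ± 0.28 for dsHMGB1 (adjusted p = 0.0239), -0.33 ± 0.28 for LPS (adjusted p = 0.214) and -0.02 ± 0.28 for LPS/IFNγ (adjusted p = 0.856). Without PBS replicate 3 it was -1.15 (adjusted p = 5.77e-11), -0.67 (adjusted p = 4.38e-08) and -0.36 (adjusted p = 2.72e-05), so that 2 further calls rest on that library. With it kept, the dsHMGB1 call was lost without PBS replicate 1 (adjusted p = 0.103) or 2 (0.0875) and without each of the dsHMGB1 libraries (0.0558 to 0.0702). It was also lost with the 2 conditions fitted alone (0.165). Against frHMGB1, where no such library occurs, dsHMGB1 was lower by -1.23 ± 0.28 (adjusted p = 0.00203).

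Of the JNK and p38 phosphatases, *Dusp16* (ENSMUSG00000030203, chr6:134715468-134792625), which encodes MKP-7 and acts mainly on JNK, followed *Dusp2* with the next largest rise. It had 420.2, 399.8 and 232 normalized counts in PBS, 375, 399 and 342 in frHMGB1, and 2516, 2651 and 2638 in dsHMGB1. It had 6952, 7047 and 7389 in LPS and 4661, 4873 and 4510.0 in LPS/IFNγ. The 3 stimulations did not overlap with one another or with PBS and frHMGB1, and the replicates of each lay close together. It rose over PBS by 2.88 ± 0.17 on the log2 scale with dsHMGB1 (7.36-fold, adjusted p = 3.82e-08), by 4.33 ± 0.17 with LPS (20.2-fold, adjusted p = 7.07e-10) and by 3.73 ± 0.17 with LPS/IFNγ (13.3-fold, adjusted p = 2.23e-09), and without PBS replicate 3 by 2.66, 4.11 and 3.50.

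*Dusp10* (ENSMUSG00000039384, chr1:184013302-184075636), which encodes MKP-5 and acts on JNK and p38, was the member with the lowest counts and went down in dsHMGB1 but up in LPS and LPS/IFNγ. Its normalized counts were 126, 122 and 152 in PBS, 116.5, 112 and 89.5 in frHMGB1, and 70.3, 78.5 and 118.5 in dsHMGB1. They were 222, 229 and 207 in LPS and 289.5, 331.5 and 298 in LPS/IFNγ. The dsHMGB1 libraries all lay below the PBS libraries, though dsHMGB1 replicate 3 only just. On the log2 scale it changed over PBS by -0.57 ± 0.20 for dsHMGB1 (adjusted p = 0.0212), 0.73 ± 0.19 for LPS (adjusted p = 0.00774) and 1.21 ± 0.18 for LPS/IFNγ (adjusted p = 0.0001), and by -0.48, 0.81 and 1.29 without PBS replicate 3, all called. The dsHMGB1 call was lost without dsHMGB1 replicate 1 (adjusted p = 0.098) or 2 (0.0884), without a filter on low counts (0.0905) and with the 2 conditions fitted alone (0.143).

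**Figure D2:**
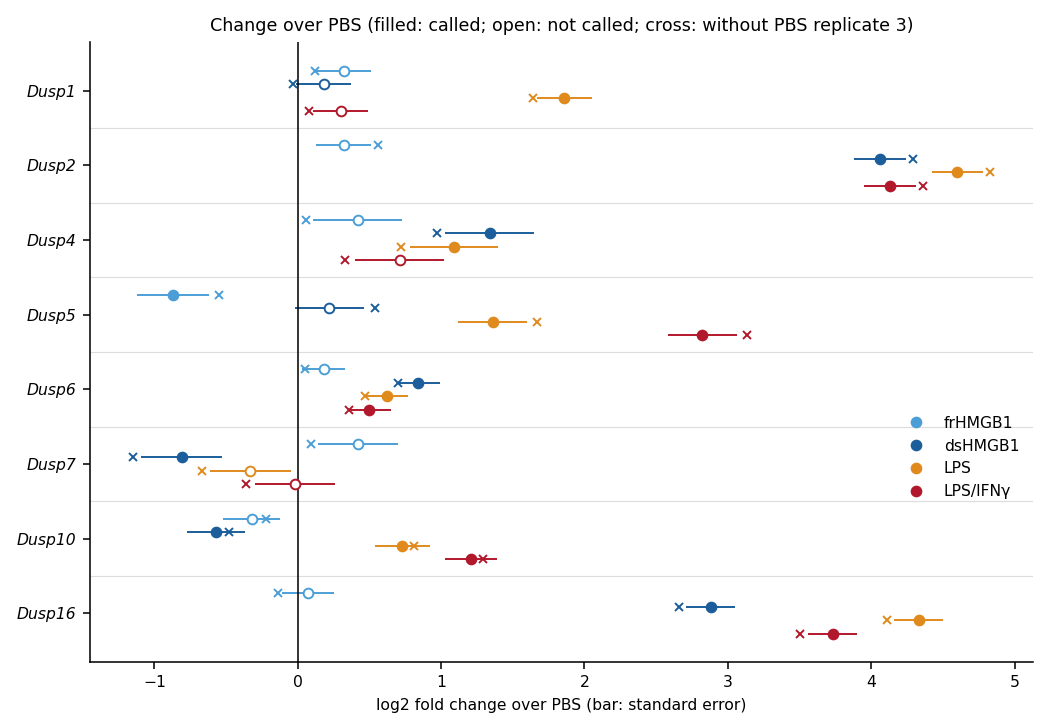
Log2 fold change over PBS of each gene in frHMGB1, dsHMGB1, LPS and LPS/IFNγ, with bars of 1 standard error; filled points were called, open points were not, and crosses give the value without PBS replicate 3. *Dusp2* and *Dusp16* lie between 2.88 and 4.60 in dsHMGB1, LPS and LPS/IFNγ, *Dusp10* lies below 0 in dsHMGB1 and above 0 in LPS and LPS/IFNγ, and the crosses of *Dusp4* and *Dusp7* lie to the left of their points.

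The other phosphatases of the same family were *Dusp8*, which prefers JNK and p38, and *Dusp9*, an ERK phosphatase related to *Dusp6*. *Dusp8* rose over PBS by 0.94 with dsHMGB1 (adjusted p = 0.000872), 1.19 with LPS (adjusted p = 0.00012) and 1.71 with LPS/IFNγ (adjusted p = 2.66e-06), on the log2 scale, and by 0.98, 1.23 and 1.75 without PBS replicate 3. *Dusp9* fell in all 3, from 143 to 325 normalized counts in PBS to 40.1 to 74.8 in dsHMGB1, LPS and LPS/IFNγ, with log2 fold changes of -1.86, -2.40 and -2.15 (adjusted p = 5.53e-05, 4.58e-06 and 9.74e-06), and -2.13, -2.67 and -2.42 without PBS replicate 3.

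The 2 HMGB1 forms were given at the same concentration and time but came from different sources. By the methods, the buffers held DTT for frHMGB1 and none for dsHMGB1. Form, source and DTT cannot be told apart here. Between them, dsHMGB1 was higher than frHMGB1 for 5 members and lower for 1, against 27.7% and 23.1% of all genes. The 5 were *Dusp2* (log2 difference 3.74), *Dusp16* (2.81), *Dusp5* (1.10), *Dusp4* (0.92) and *Dusp6* (0.65), and the 1 was *Dusp7*. *Dusp1* differed by -0.14 (95% interval -0.51 to 0.22, adjusted p = 0.48) and *Dusp10* by -0.25 (-0.65 to 0.14, adjusted p = 0.245). The *Dusp4* call was the least firm and was lost without any of 5 single libraries of these conditions (adjusted p = 0.0548 to 0.0799). Without PBS replicate 3 the numbers were again 5 and 1, against 35.8% and 32.9% of all genes.

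The TLR4 ligands dsHMGB1 and LPS were then compared directly. Each was given at 1 dose, 5 µg/mL and 1 µg/mL, so ligand and dose cannot be told apart. No member was higher in dsHMGB1 and 5 were lower, against 15.8% of all genes higher and 10.6% lower; an unadjusted p under 0.05 and DESeq2's Wald test also gave 0 higher and 5 lower. *Dusp1* differed by -1.68 ± 0.19 (adjusted p = 3.92e-05), *Dusp16* differed by -1.45 ± 0.17 (adjusted p = 8.69e-05), *Dusp10* by -1.30 ± 0.20 (adjusted p = 0.000322), *Dusp5* by -1.13 ± 0.24 (adjusted p = 0.0024) and *Dusp2* by -0.54 ± 0.18 (adjusted p = 0.0357). For *Dusp1*, the dsHMGB1 libraries at 1277 to 1363 normalized counts lay far below the LPS libraries at 4024 to 4420. The *Dusp2* difference was lost in the fit of protein-coding genes alone (adjusted p = 0.0655) and without dsHMGB1 replicate 2 or 3 (0.121 and 0.129) or LPS replicate 2 or 3 (0.0684 and 0.0804). Leaving PBS replicate 3 out of the fit, which changes the spread that all comparisons share, *Dusp4* was higher in dsHMGB1 by 0.26 (adjusted p = 0.0104) and *Dusp7* differed by -0.48 (adjusted p = 1.43e-05), giving 1 member higher and 6 lower, against 25.6% and 23.3% of all genes.

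Compared with LPS/IFNγ, 0 members were higher in dsHMGB1 and 4 were lower (16.5% and 16.7% of all genes), with 1 higher at an unadjusted p under 0.05 and 0 by DESeq2's Wald test. These were *Dusp5*, with a log2 difference of -2.59 ± 0.24 (adjusted p = 1.36e-06), *Dusp10*, with -1.78 ± 0.19 (adjusted p = 9.27e-06), *Dusp16*, with -0.85 ± 0.17 (adjusted p = 0.0028), and *Dusp7*, with -0.79 ± 0.28 (adjusted p = 0.0465). The *Dusp7* call was lost without any 1 of the 6 libraries compared (adjusted p = 0.0937 to 0.125) and with a replicate block (0.0547). It was held without PBS replicate 3 (adjusted p = 1.54e-08). In that fit *Dusp4* (0.64, adjusted p = 1.67e-06) and *Dusp6* (0.34, adjusted p = 0.00433) were also called, both higher in dsHMGB1, which gave 2 higher and 4 lower against 27.9% and 25.4% of all genes. *Dusp1* differed by -0.12 (95% interval -0.48 to 0.25) and *Dusp2* by -0.07 (-0.42 to 0.28), so the data bound these differences without showing equal levels.

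The last comparison, LPS/IFNγ with LPS, differed in IFNγ and possibly in the LPS dose, which cannot be told apart. *Dusp5* was higher in LPS/IFNγ by 1.46 ± 0.24 (2.75-fold, adjusted p = 0.000201). *Dusp1* fell to 0.339 of its LPS level (log2 difference -1.56 ± 0.19, adjusted p = 5.65e-05) and *Dusp16* to 0.657 (-0.61 ± 0.17, adjusted p = 0.0319). This was 1 member higher and 2 lower, against 16.3% and 9.36% of all genes. An unadjusted p under 0.05 and DESeq2's Wald test each gave 2 higher and 3 lower, adding *Dusp10* and *Dusp2*. In edgeR's test with all libraries, their adjusted p was 0.0573 and 0.0607. The *Dusp16* call was lost without any 1 of the 6 libraries compared (adjusted p = 0.0507 to 0.0737), and its replicates did not overlap. Without PBS replicate 3, *Dusp2* (-0.47), *Dusp4* (-0.39), *Dusp7* (0.31) and *Dusp10* (0.48) were also called (adjusted p = 0.000361, 0.000707, 0.001 and 0.0251), which made 3 higher and 4 lower against 25.1% and 24.3% of all genes.

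**Figure D3:**
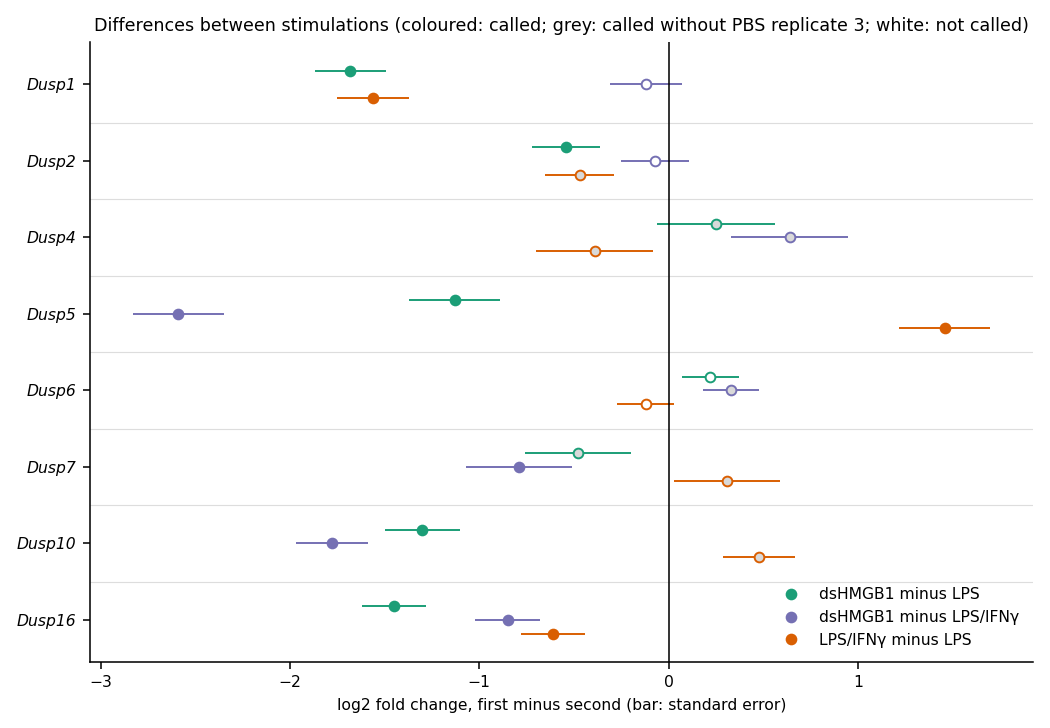
Log2 difference between stimulations for each gene, first condition minus second, with bars of 1 standard error; coloured points were called, grey points were called in the fit without PBS replicate 3 only, and white points were not called. *Dusp1*, *Dusp5*, *Dusp10* and *Dusp16* lie between -1.68 and -1.13 for dsHMGB1 minus LPS, and for LPS/IFNγ minus LPS *Dusp5* lies at 1.46 and *Dusp1* at -1.56.

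In the order of the condition means, *Dusp2*, *Dusp16* and *Dusp1* had their highest mean in LPS, *Dusp5* and *Dusp10* in LPS/IFNγ, *Dusp4* and *Dusp6* in dsHMGB1 and *Dusp7* in frHMGB1. Neighbours in that order often did not differ beyond their spread. For *Dusp16*, dsHMGB1, LPS/IFNγ and LPS followed one another with called steps of 0.85 and 0.61, and for *Dusp5*, dsHMGB1, LPS and LPS/IFNγ with called steps of 1.13 and 1.46. For *Dusp4*, *Dusp6* and *Dusp7*, no step between neighbours was called with all libraries in the fit.

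Levels of different genes were compared per kilobase of exon. The summed level of the 8 mRNAs was 1684 ± 443 (SD, n = 3) normalized counts per kb for PBS, 2055 ± 63.1 for frHMGB1, 4735 ± 283 for dsHMGB1, 7529 ± 302 for LPS and 5870.0 ± 154 for LPS/IFNγ. *Dusp7* had the highest level per kb in PBS, at 30.9% of the sum on average (35.3%, 35.6% and 21.8% in replicates 1, 2 and 3), and *Dusp2* made up 10.1% (7.23%, 6.03% and 17.1%), with PBS replicate 3 apart from the other PBS libraries in both. In dsHMGB1, LPS and LPS/IFNγ, *Dusp2* made up 53.3%, 48.8% and 45.3% and *Dusp7* 6.59%, 5.78% and 9.15%. The inducible nuclear class took 56.6% ± 6.13 of the sum in PBS and 54% ± 2.8 in frHMGB1, against 81.3% ± 1.76 with dsHMGB1, 78.8% ± 0.85 with LPS and 76.1% ± 0.529 with LPS/IFNγ. The cytoplasmic ERK class took 37.9% and 42% in the first and 11%, 8.16% and 12% in the latter, and the JNK and p38 class 5.48%, 4.01%, 7.69%, 13.1% and 11.9%. The larger nuclear share came with *Dusp2*, joined by *Dusp5* in LPS/IFNγ. From PBS to dsHMGB1, *Dusp1* went from 20.9% to 8.46%, *Dusp5* from 8.37% to 3.05% and *Dusp4* from 17.3% to 16.5%. In LPS these were 17%, 4.21% and 8.68%, and in LPS/IFNγ 7.41%, 14.8% and 8.52%. PBS replicate 3 was again apart for *Dusp5* (5.08%, 5.13% and 14.9% in PBS replicates 1, 2 and 3) and *Dusp4* (19.2%, 21.6% and 11%). It was also apart for the inducible nuclear class (53.5%, 52.7% and 63.7%) and the cytoplasmic ERK class (41.7%, 42.4% and 29.5%), so these PBS means depend on that library. The larger JNK and p38 share came with *Dusp16*, from 2.65% in PBS to 7.07%, 12.1% and 10.2% in dsHMGB1, LPS and LPS/IFNγ. *Dusp10* went from 2.83% (2.09%, 2.13% and 4.26% in PBS replicates 1, 2 and 3) to 0.624%, 0.961% and 1.72%. This is a description of shares without a test.

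**Figure D4:**
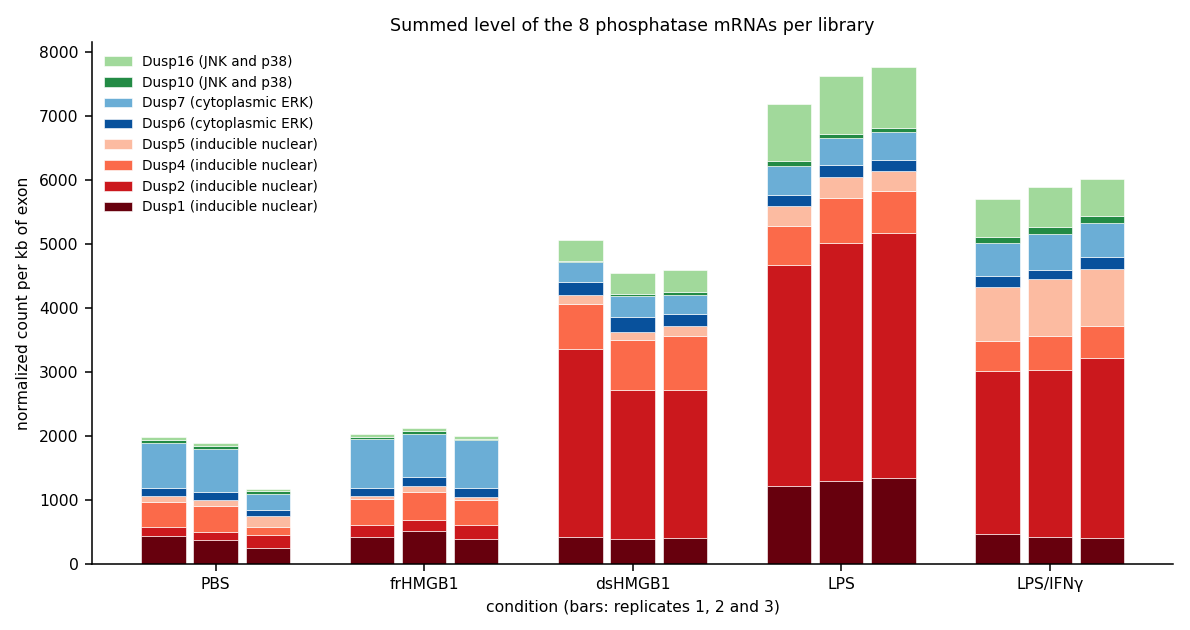
Normalized counts per kb of exon of the 8 genes, stacked for each library, with 3 bars per condition and colours by gene and class. *Dusp2* makes up 45.3% to 53.3% of the bar on average in dsHMGB1, LPS and LPS/IFNγ, the *Dusp1* segment is widest in LPS, and the bar of PBS replicate 3 (1175) is the shortest.

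The genes most like each member were read from Pearson's r of log2(normalized count + 1) over the 15 libraries. The 10094 genes searched were protein-coding, were not members and had a mean of 100 normalized counts or more. It is a description in which all genes share the same libraries. *Dusp16* was followed most closely by *Rab11fip1*, which acts in endosome recycling (r = 0.999), and by *Cd44*, the hyaluronan receptor (0.998). *Dusp2* was followed by *Gch1*, the first enzyme of tetrahydrobiopterin synthesis (0.998), and *Ube2l6*, a conjugating enzyme for ISG15 (0.997). For *Dusp5* they were *Fcgr4*, an Fc receptor (0.979), and *Ly6a* (0.978), for *Dusp10* *Uaca* (0.972) and *Tnip2*, an inhibitor of NF-κB signaling (0.949), and for *Dusp6* *Lox*, a lysyl oxidase (0.972). *Dusp4* had *Abr* (0.983) and the macrophage marker *Adgre1* (0.98), *Dusp7* had *S1pr1* (0.964) and *Zfp28* (0.951), and *Dusp1* had *Ercc3* (0.936) and *Frmd6* (0.932). Among the members, r was highest for *Dusp2* with *Dusp16* (0.968) and lowest for *Dusp2* with *Dusp7* (-0.515). By Spearman's rho, 3 of the 16 genes chosen in this way were still among the 2 most like their member.

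The rest of the pathway was described with lists of named genes, whose counts stand beside 23.3% of all tested genes higher and 24.2% lower in dsHMGB1, 26.7% and 36.2% in LPS, and 29% and 31.2% in LPS/IFNγ. In the fit without PBS replicate 3 the shares of all genes called were larger, and list counts are given for it where they moved by 1.5 times or more. Of 9 tested MAP kinases, 4 were higher and 2 lower than PBS in dsHMGB1, 3 and 2 in LPS and 2 and 2 in LPS/IFNγ, the rest not called. The last was 2 and 3 without PBS replicate 3. *Mapk14*, which encodes p38α, rose in LPS (log2 fold change 0.99, adjusted p = 4.29e-05) and dsHMGB1 (0.61, adjusted p = 0.00213) and was lower in LPS/IFNγ than in LPS by -1.16 (adjusted p = 3.35e-05). Over PBS its LPS/IFNγ value was -0.17 (adjusted p = 0.19), and -0.33 and called without PBS replicate 3 (adjusted p = 1.34e-05). *Mapk3*, an ERK gene, fell in dsHMGB1 (-0.60), LPS (-0.63) and LPS/IFNγ (-1.12), and without PBS replicate 3 these were -0.25, -0.29 and -0.79, all called. With the 2 conditions fitted alone, the *Mapk3* calls in dsHMGB1 and LPS were lost (adjusted p = 0.124 and 0.12), as was the *Mapk14* call in dsHMGB1 (0.066). The JNK gene *Mapk9* rose in dsHMGB1 (0.84, adjusted p = 0.000911) and LPS (0.86, adjusted p = 0.000835).

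Upstream of the MAP kinases, 7 MAP2 kinases had 2 higher and 2 lower in dsHMGB1 and 3 higher and 2 lower in LPS and in LPS/IFNγ; without PBS replicate 3 it was 4 and 2 in dsHMGB1. *Map2k1*, an activator of ERK, rose by 1.63, 2.27 and 1.85 on the log2 scale with dsHMGB1, LPS and LPS/IFNγ, in that order as in the triplets that follow (adjusted p = 1.18e-05, 3.75e-07 and 2.17e-06), and *Map2k4*, an activator of JNK, by 1.12, 2.25 and 2.39 (adjusted p = 0.000923, 1.63e-06 and 7.27e-07). *Map2k5*, which activates the more distant kinase encoded by *Mapk7*, fell in LPS and LPS/IFNγ (-0.68 and -0.87, adjusted p = 5.03e-06 and 6.91e-07), while its dsHMGB1 value of -0.21 (adjusted p = 0.045) lost its call under 9 alternatives, among them RLE size factors (0.0618), no filter on low counts (0.408) and each dsHMGB1 library left out (0.0564 to 0.159). Of 12 MAP3 kinases and TAB proteins, 4 were higher and 2 lower in dsHMGB1, 4 and 3 in LPS and 5 and 3 in LPS/IFNγ. In dsHMGB1 without PBS replicate 3 the numbers were 5 and 3. *Map3k8*, the kinase that links Toll-like receptors to ERK, rose over its PBS level of 1086 ± 437.5 normalized counts (SD, n = 3) to 4526 ± 228 with dsHMGB1, 9782 ± 269.5 with LPS and 7697 ± 217 with LPS/IFNγ (adjusted p = 1.44e-05, 1.97e-07 and 4.8e-07). *Tab2*, an adaptor of the kinase TAK1, rose by 1.81, 2.46 and 2.92 (adjusted p = 3.06e-07, 1.24e-08 and 2.01e-09), while its partner *Tab1* fell in all 3, with -1.05 for LPS and -1.47 for LPS/IFNγ (adjusted p = 2.93e-06 and 1.47e-07). *Map3k1*, an activator of the JNK branch, had log2 fold changes of -1.58, -2.37 and -1.06 (adjusted p = 0.000794, 1.78e-05 and 0.00666). Its LPS/IFNγ libraries, at 1407 to 1560 normalized counts, lay within the PBS range of 1311 to 4064. That call was lost with the 2 conditions fitted alone (adjusted p = 0.0872), and the value was -1.43 without PBS replicate 3.

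Downstream, 9 MAPK-activated kinases had 3 higher and 2 lower in dsHMGB1 and 5 higher and 3 lower in LPS and in LPS/IFNγ; without PBS replicate 3 the balance in dsHMGB1 turned, to 2 higher and 4 lower. *Rps6ka4* was not matched. *Mapkapk2*, the p38 target that stabilizes cytokine mRNAs, rose over its PBS level of 11170 ± 644.5 normalized counts to 89970 ± 5897 with dsHMGB1, 109800 ± 4277 with LPS and 67280 ± 967 with LPS/IFNγ (adjusted p = 4.96e-12, 1.51e-12 and 8.72e-12). *Mknk2*, a kinase of the cap-binding factor eIF4E, fell (log2 fold changes of -2.78, -3.15 and -3.06, adjusted p = 2.81e-10, 4.68e-11 and 5.64e-11). Of 15 ERK output and feedback genes, 9 were higher and 1 lower in dsHMGB1, 10 and 2 in LPS and 9 and 2 in LPS/IFNγ, and without PBS replicate 3 the numbers lower were 3, 3 and 4. *Il17rd*, which encodes the feedback inhibitor Sef, rose from 20.9 normalized counts in PBS to 337, 751 and 305 (adjusted p = 2.83e-07, 1.97e-08 and 2.43e-07). *Phlda1* was highest in LPS/IFNγ (3319 ± 98.8 normalized counts, against 93 ± 20 in PBS), and *Spry2*, an inhibitor of receptor signaling to ERK, rose in LPS by 0.88 (adjusted p = 0.000122). Its LPS/IFNγ value of -0.35 (adjusted p = 0.0249) lost its call without PBS replicate 1 (-0.23, adjusted p = 0.127), without LPS/IFNγ replicate 1 (0.0571) or 3 (0.0763), with no filter on low counts (0.189) and with the 2 conditions fitted alone (0.18).

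Other phosphatases moved in both directions. Of 10 tested atypical DUSPs, small phosphatases without the kinase-binding domain, 3 were higher and 6 lower in dsHMGB1, 3 and 7 in LPS and 2 and 5 in LPS/IFNγ, with medians of -0.87, -1.24 and -0.80. The numbers were 3 and 5, 3 and 6, and 4 and 5 without PBS replicate 3. *Dusp14* rose from 4.47 normalized counts in PBS to 20.1 with dsHMGB1, 271 with LPS and 362 with LPS/IFNγ, a log2 fold change of 5.70 for LPS and 6.12 for LPS/IFNγ (adjusted p = 6.4e-08 and 2.87e-08), and differed by -3.75 between dsHMGB1 and LPS (adjusted p = 8.45e-06). *Dusp18* fell, with log2 fold changes of -2.03, -3.35 and -3.02 (adjusted p = 5.05e-05, 6.38e-07 and 1.21e-06). *Ptpn7*, a tyrosine phosphatase of ERK and p38 in blood cells, was the tested gene of 3 in its group and fell (-0.86, -1.59 and -1.40, adjusted p = 4.18e-05, 5.36e-08 and 2.17e-07).

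**Figure D5:**
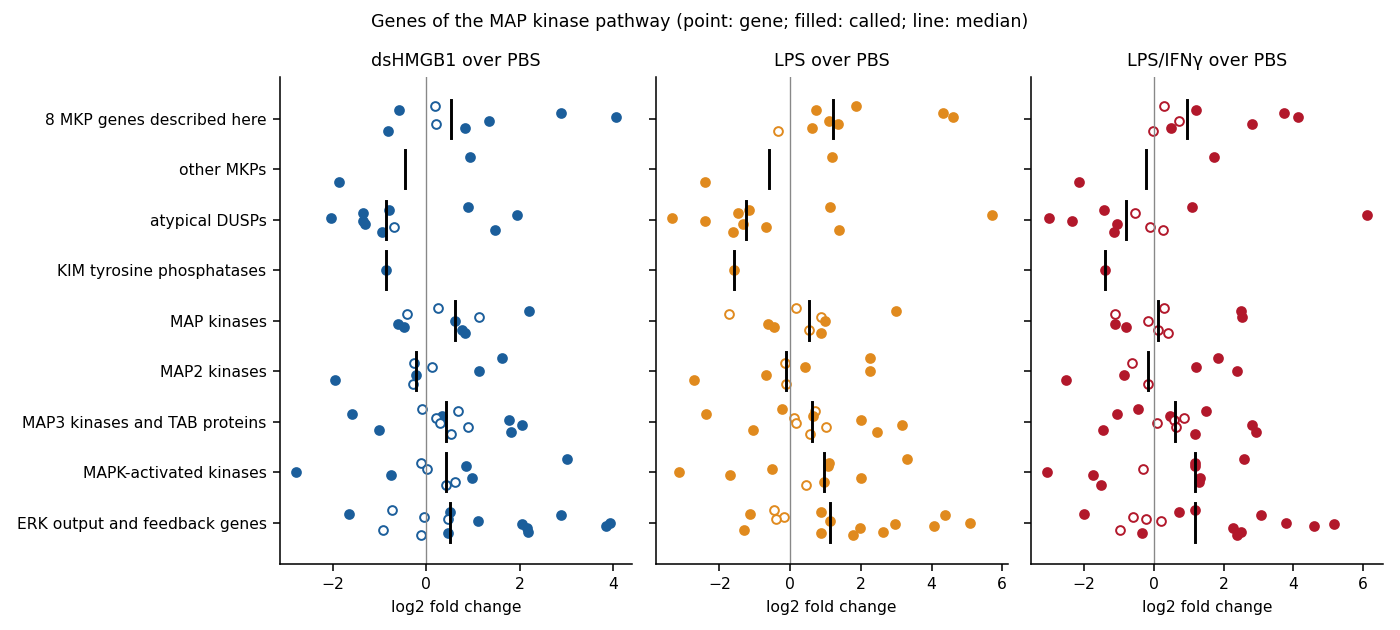
Log2 fold change over PBS in dsHMGB1, LPS and LPS/IFNγ for the 8 phosphatase genes and for each list of the pathway, 1 point per gene, filled where called, with the list's median as a line. The medians of the 8 genes lie at 0.53, 1.23 and 0.96, those of the atypical DUSPs at -0.87, -1.24 and -0.80, and every list with over 1 tested gene has genes on both sides of 0.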

How the data were processed

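Stranded mRNA libraries were sequenced in paired-end mode, and the authors mapped the reads to the mouse genome (GRCm38) by STAR and counted them per gene. The deposited values are raw counts, whole reads for each Ensembl gene without any scaling. For the counter and the gene models behind it, the sources used here give nothing. GENCODE M21 supplied gene names, positions and exon lengths and held 51661 of the 51763 identifiers (102 were not found). A gene was tested if it passed filterByExpr of edgeR (a minimum of 10 counts in a condition's libraries and 15 in total), and 22712 genes had no count. The test was edgeR 4.0.16's quasi-likelihood F test (TMM, 1 fit of the 15 libraries, no covariates), with calls at a Benjamini-Hochberg adjusted p below 0.05. Normalized counts, log2 fold changes without shrinkage and their standard errors came from DESeq2 1.42.0 (R 4.3.3), and 95% intervals are normal intervals from these errors. The scripts were tested on simulated data.

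The 8 members and the pathway and marker lists were chosen with earlier results of these data known. Besides the members, *Dusp8* and *Dusp9*, the text names from each pathway list the largest called rise and fall over PBS among genes whose mean was 100 normalized counts or more, the 2 genes most like each member by Pearson's r (of which 1 is not reported here), and marker genes by list. *Fth1* was named after its values were seen. Alternatives were DESeq2's Wald test, RLE size factors, no filter, 1 CPM in 3 libraries, protein-coding genes alone, the 2 conditions compared alone, a replicate block, TMM-scaled fold changes, other lengths for the summed level, and each library left out in turn. TMM-scaled fold changes, and leaving PBS replicate 3 out of comparisons without PBS, of the pathway lists and of the summed level, were added after the data were seen. No replicates were near enough in their counts to be copies of 1 library.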

Additional observations from a re-analysis of the deposited data

How the results depend on the processing

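Over 8 comparisons, 37 of 64 results of single members were called, 27 of these under every alternative run, and 15 of the 27 uncalled results were called under at least 1; the cause was not tested. The number of members called moved by over 1.5 times in 3 comparisons. For frHMGB1 against PBS, where 1 was called, it was 0 in the fit of protein-coding genes and with the 2 conditions alone, and 0 to 2 with single libraries left out. For dsHMGB1 against PBS (6 called) it was 3 with the 2 conditions alone and 4 to 7 with libraries left out, and for LPS/IFNγ against LPS (3 called) it was 5 by DESeq2's Wald test, 7 with the 2 conditions alone and 2 to 7 with libraries left out, the 7 being the fit without PBS replicate 3. Signs turned for 4 results near 0. *Dusp1* in dsHMGB1 against PBS was -0.03 and *Dusp16* in frHMGB1 against PBS -0.14 without PBS replicate 3, and these values reached 0.36 and 0.23 with another library left out. *Dusp1* in LPS/IFNγ against frHMGB1 was 0.06 over protein-coding genes and -0.11 to 0.09 without a single library, 0.02 being the value without LPS/IFNγ replicate 3, and *Dusp7* in LPS/IFNγ against PBS 0.03 with a replicate block and -0.36 to 0.21 without a single library, with 0.01 and 0.17 between these. With lengths of the longest transcript, the summed level per kb was 2367 for frHMGB1, 5730.0 for dsHMGB1, 9490.0 for LPS and 7062 for LPS/IFNγ, and the inducible nuclear share 56.8% for frHMGB1, 77.5% for LPS and 74.9% for LPS/IFNγ; TMM scaling gave 2119 in frHMGB1. With a replicate block, 0, 6, 7 and 5 members were called against PBS in frHMGB1, dsHMGB1, LPS and LPS/IFNγ. Deviations of libraries with the same replicate number had a correlation of -0.386 to 0.375, and 6 of 15 libraries correlated best with their own number, so the numbers were not taken as pairs. Of 312 recomputed list counts, each the number of genes called in either direction, 306 stayed within 1.5 times. The numbers higher and lower were not scored separately. *Dusp10* had the lowest counts, 70.3 to 331.5 normalized counts, and 3 libraries of 1 pool per condition limit every comparison.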
